A study of Rattus norvegicus with 4 samples.

Results

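The genes described here encode the proteins of the cytosolic ribosome. They were chosen by name: every annotated gene whose symbol starts with Rpl or Rps followed by a digit, together with Rpsa and the stalk genes Rplp0, Rplp1 and Rplp2, and without the S6 kinases, which only share the first letters. The rule found 87 of 16992 annotated genes. Of these, 45 encode proteins of the large subunit and 31 proteins of the small subunit, 10 are named as paralogs or pseudogenes of such genes (Rpl22l1, Rpl35al1, Rpl36al, Rpl37a-ps1, Rpl39l, Rpl3l, Rps27l, Rps4x-ps1, Rps4y2 and Rps9l1), and 1, Rps19bp1, encodes a protein that binds a ribosomal protein and is none itself.

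Liver RNA was sequenced from 4 wild-type male Wistar rats, bought at 6 weeks of age and acclimatized for a week or longer, with 1 rat for each condition. The sevoflurane 6 h rat breathed 4.5% sevoflurane and the desflurane 6 h rat 6% desflurane for 6 hours, both volatile anesthetics, in 50% oxygen at 3 L/min. The control rat of each agent, called the sevoflurane control and the desflurane control, breathed the same gas only until they lost consciousness and were then sacrificed, so that no rat was free of anesthetic and the controls differ from the 6 h rats in the length of anesthesia. All 4 libraries came from the left lateral lobe of rats that had gone without food and water for 2 hours. With 1 library per condition there was no replicate error, no test could be made, and each difference below is a difference between 2 livers.

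The ribosome is the machine that reads mRNA and joins amino acids into protein. Its small subunit holds the mRNA and checks the codon, and its large subunit forms the peptide bond and carries the tunnel through which the new chain leaves. Ribosomal protein genes are among the most highly expressed genes of any cell, are kept in step with each other because most of the proteins are used in equal number, and most begin their mRNAs with a run of pyrimidines, the 5′ terminal oligopyrimidine (TOP) motif, through which the TOR kinase controls their translation. The liver makes most plasma proteins and therefore holds a large pool of ribosomes. Control through the TOP motif need not change mRNA levels, and translation was not measured here.

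The sequences around the annotated transcription starts show what these genes shared outside their names. RefSeq promoters (build GRCr8, 250 bases before to 50 after the start) matched 68 of the 87 genes. The windows below run from 30 bases before the start to the first 15 transcribed bases, 5′ to 3′ on the gene's strand, and capitals mark the longest unbroken run of C and T, of 5 bases or more, that reaches within 15 bases of the start, as far as the window shows it. The first 5 are the genes with the highest ratio under sevoflurane, followed by 2 with a high ratio under desflurane, 2 that went in opposite directions with the 2 agents, and the 2 most abundant genes of the large subunit. Rpl22l1, a paralog, and Rps19bp1, which encodes no ribosomal protein, close the list. Positions are those of GRCr8 and not of rn6, the build of the expression tables.
Rpl31, chr9:49143081-49143125, + strand: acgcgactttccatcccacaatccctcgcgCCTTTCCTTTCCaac
Rpl3, chr7:113507976-113508020, - strand: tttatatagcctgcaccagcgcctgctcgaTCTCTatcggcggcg
Rpl13, chr19:68062484-68062528, + strand: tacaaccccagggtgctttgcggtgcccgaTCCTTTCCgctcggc
Rpl4, chr8:73566447-73566491, + strand: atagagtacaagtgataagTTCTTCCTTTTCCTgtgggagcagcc
Rpl10a, chr20:6390503-6390547, + strand: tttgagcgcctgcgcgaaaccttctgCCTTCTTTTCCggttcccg
Rpl37a, chr9:81748061-81748105, + strand: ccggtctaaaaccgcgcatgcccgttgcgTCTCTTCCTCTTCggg
Rpl27a, chr1:172974543-172974587, + strand: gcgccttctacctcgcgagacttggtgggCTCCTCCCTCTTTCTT
Rps26, chr7:1643390-1643434, - strand: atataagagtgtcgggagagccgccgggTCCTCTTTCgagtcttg
Rpl17, chr18:70856246-70856290, + strand: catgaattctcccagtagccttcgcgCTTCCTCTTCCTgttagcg
Rpl10, chrX:157205820-157205864, + strand: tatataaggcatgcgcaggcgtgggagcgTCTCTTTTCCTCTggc
Rplp1, chr8:71290858-71290902, - strand: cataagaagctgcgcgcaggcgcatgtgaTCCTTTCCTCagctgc
Rpl22l1, chr2:113683166-113683210, + strand: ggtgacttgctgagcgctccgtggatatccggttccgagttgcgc
Rps19bp1, chr7:113693009-113693053, - strand: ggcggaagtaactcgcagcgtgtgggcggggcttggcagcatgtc

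In Rpl31 the run of 12 pyrimidines began at the first transcribed base, and in Rpl10, Rplp1 and Rpl37a it began 1 base earlier. Rpl3 had a run of 5. The run of Rpl27a, 20 bases long, goes on past the end of its window. Rpl22l1 and Rps19bp1 held no run of 5 near the start. The same was true of the subunit genes Rpl11, Rpl26, Rpl41, Rps12 and Rps19 and of the paralog Rps27l. The paralogs Rpl35al1 and Rps4y2 had runs of 11 and 8. A run of 6 or more pyrimidines near the start was present in 54 of 61 promoters of the subunit genes (88.5%), in 33.0% of the 7370 promoters of genes above 2 TPM in all 4 libraries and in 36.4% of all 27457 promoters. Among the mitochondrial ribosomal protein genes, whose products serve the separate ribosome of the mitochondrion, it was present in 39.3% of 56. The pyrimidine share from 5 bases before to 10 bases after the start averaged 68.7% in the 61 promoters and 48.4% in the other 7303. A promoter match is a description of letters, and the annotated start can differ from the one used in these livers.

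**Figure D1:**
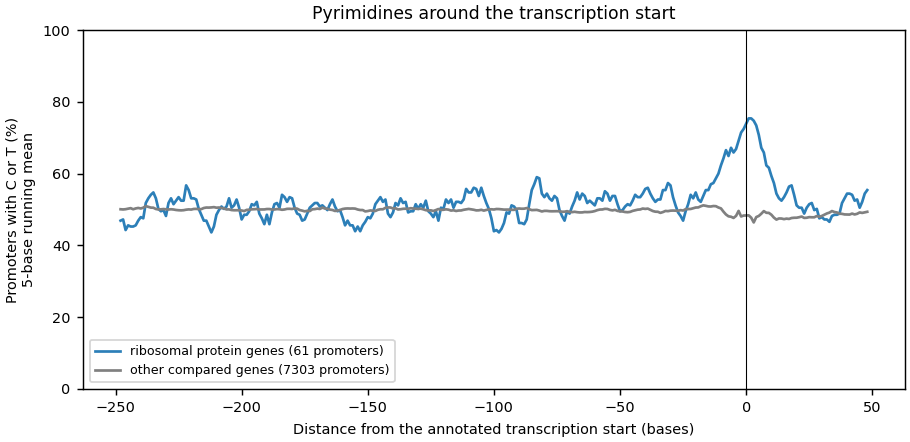
Share of promoters with C or T at each position (y axis, percent, running mean over 5 bases) against distance from the annotated transcription start (x axis, bases), for 61 promoters of large and small subunit genes (blue) and 7303 promoters of the other genes above 2 TPM in all 4 libraries (grey). The blue line peaks at 75.4% at the start while the grey line stays near 50% throughout.

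Other motifs were searched on both strands of the 300 bases. TTCCGG, the core letters bound by ETS family factors, was found in 33 of 61 subunit gene promoters (54.1%), in 30.5% of promoters of genes above 2 TPM, in 15.8% of all promoters and in 53.6% of mitochondrial ribosomal protein promoters. CTTTCC, which overlaps with the pyrimidine runs, was found in 47.5% of the 61 and 26.4% of all promoters, and CTCTTT, likewise, in 50.8% and 23.5%. GGGCGG, the GC box, was found in 57.4% of the 61 and in 63.3% of promoters of genes above 2 TPM. TATAAA was found in 9.84% of the 61 and 7.001% of promoters of genes above 2 TPM. The largest gap in share between the subunit genes and the genes above 2 TPM was that of the pyrimidine run, and no test was made of any.

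Expression is given as TPM, a level per length of transcript scaled to the library, summed over the rows of a gene. Of the 87 genes, 84 were above 2 TPM in all 4 libraries, as were 9136 genes in all, which are the genes compared below. The other 3 were near or at 0: Rpl3l, the form of striated muscle, was listed at 0.147 TPM in the sevoflurane control and lower elsewhere, Rps4x-ps1 at no more than 0.619 TPM, and Rpl39l, known from testis, at 0 TPM in sevoflurane 6 h and at no more than 0.221 TPM in the others. Read coverage was taken from the row of each gene with the highest coverage. Over the 84 genes its median was between 280 and 298.1 in the 4 libraries, and it was never below 11.4. The files give no read counts, so counting intervals were not computed.

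Ribosomal protein mRNA made up close to the same share of the libraries throughout. The summed level was 16179 TPM in the sevoflurane control, 18099 in sevoflurane 6 h, 15837 in the desflurane control and 16554 in desflurane 6 h. Sevoflurane 6 h was the highest library and the remaining 3 lay close together. The sum was 1.12 times that of its own control in sevoflurane 6 h and 1.05 times in desflurane 6 h, and the desflurane control stood at 0.979 times the sevoflurane control. The subunits had nearly equal ratios, 1.13 for the large and 1.11 for the small subunit with sevoflurane, and 1.05 and 1.04 with desflurane. Of all annotated TPM outside rRNA genes, the share was 2.07%, 2.33%, 2.13% and 2.06% in the same order of libraries, which puts desflurane 6 h a little under its control.

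The rRNA genes bear on this scale. Libraries were depleted of rRNA, and what remained summed to 9962 TPM in the sevoflurane control, 23538 in sevoflurane 6 h, 35023 in the desflurane control and 7951 in desflurane 6 h. The desflurane control thus held over 4 times the rRNA of its 6 h partner. When rRNA genes were taken out and the remaining annotated rows rescaled, the median log2 ratio of all genes for desflurane 6 h over its control went from 0.12 to 0.01. For this reason each median of the ribosomal protein genes is given beside the median of all 9136 genes, which moves with the scale.

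The most abundant gene was Rps29, a small zinc-binding protein of the small subunit, at 689 TPM in the sevoflurane control, 669 in sevoflurane 6 h, 615 in the desflurane control and 744 in desflurane 6 h. Rpl10, a protein that joins the large subunit late in its assembly, was at 661, 689, 625 and 665 TPM. Rplp1, an acidic protein of the stalk that draws elongation factors to the ribosome, was at 558, 624, 533 and 518 TPM. All 3 differed little among the livers, and their order by library was not the same. Among the next by mean level were Rpl41, Rpl29, Rps18, Rps26, Rpsa and Rpl4, at means between those of Rplp1 and Rplp0. At the other end of the subunit genes stood Rpl38, summed over 3 rows, at 42.0, 42.5, 42.5 and 41.4 TPM. The mRNA levels of ribosomal protein genes were thus spread widely over the genes and changed little over the libraries.

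**Figure D2:**
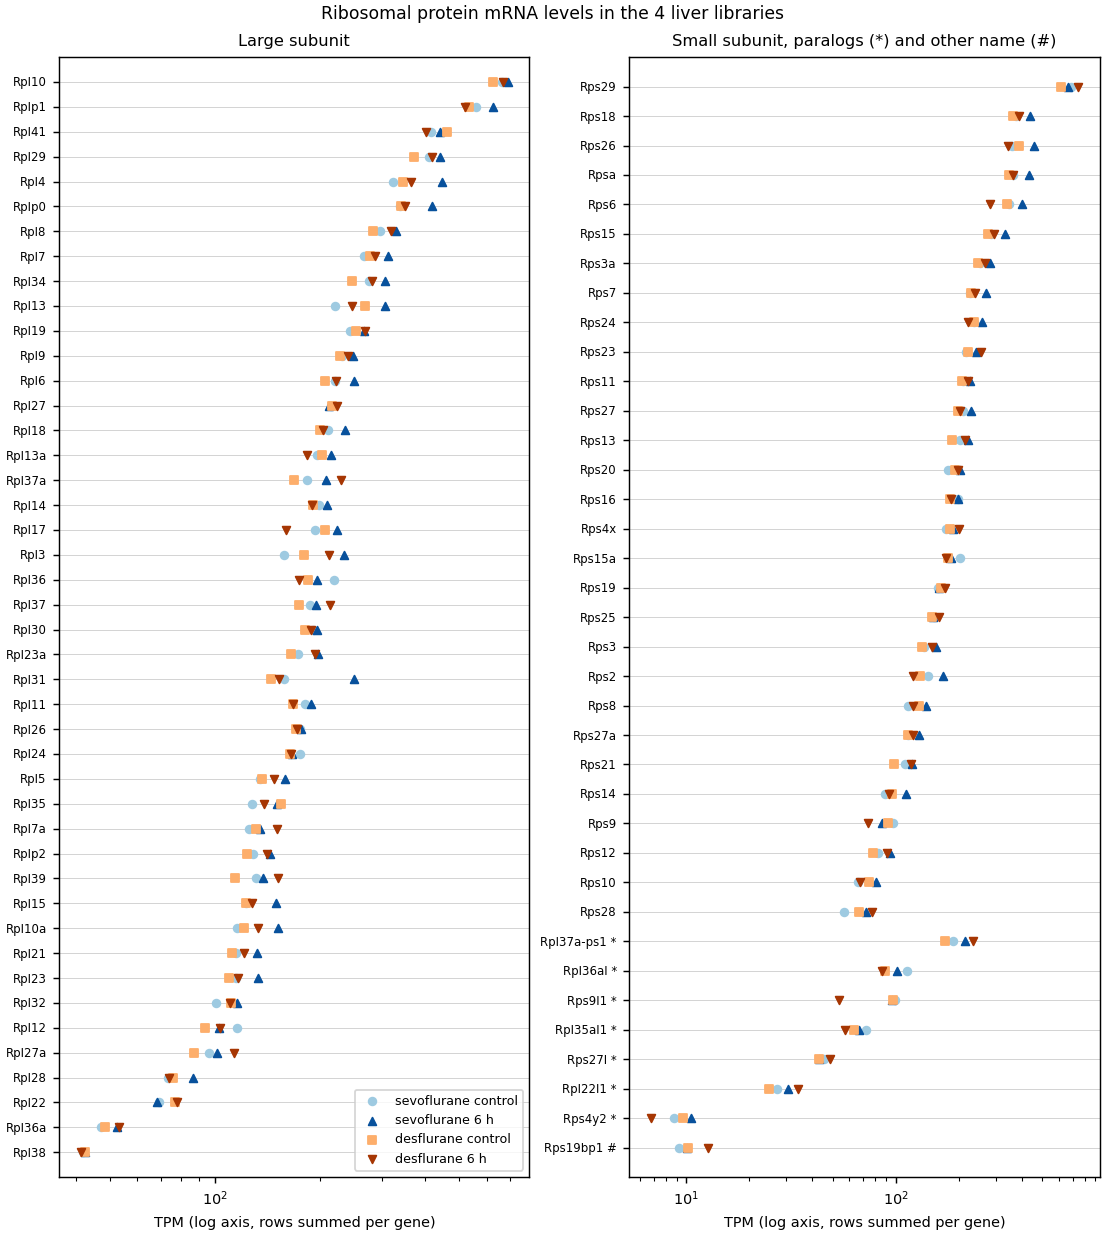
TPM of 81 of the 84 genes (x axis, log scale, rows summed per gene) in the 4 libraries, large subunit genes on the left and small subunit genes, paralogs (*) and Rps19bp1 (#) on the right, ordered by mean TPM within class. Circles are the sevoflurane control, upward triangles sevoflurane 6 h, squares the desflurane control and downward triangles desflurane 6 h; the upward triangle of Rpl31 at 250 TPM stands apart from its other 3 points at 145 to 158.

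The ratio of the highest to the lowest of the 4 libraries was used as a measure of how constant a gene was. Its median was 1.20 over the 84 genes, with 58 of them (69.0%) spanning less than 25%, and 1.34 over all 9136 genes, of which 34.0% spanned less than 25%. Among the 768 genes above 100 TPM in all 4 libraries, the median was 1.27 and 46.2% spanned less than 25%. Nuclear genes of the respiratory chain had a median of 1.17, mitochondrial ribosomal protein genes 1.27 and proteasome subunits, the parts of the cell's main protease, 1.31. The median of the ribosomal protein genes was thus near that of the respiratory chain and under that of genes above 100 TPM. The widest ratios, outside genes with rows that changed between files, were 1.72 for Rpl31, 1.56 for Rps4y2 and 1.48 for Rpl3.

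Against its own control, sevoflurane 6 h had higher levels of most ribosomal protein genes by a small and even amount. The median log2 ratio was 0.16, with quartiles of 0.06 and 0.23, beside 0.05 over all 9136 genes, with quartiles of -0.16 and 0.26. Of the 84 genes, 71 (84.5%, against 57.1% of all genes) were above and 13 below equal levels. The small subunit genes had a median of 0.19 and the large subunit genes 0.15. The genes formed a narrow band set about 0.10 above the median of all genes. Genes above 100 TPM, taken from the whole table, had a median of 0.01. No ribosomal protein gene differed by 2-fold, against 3.4% of all genes in either direction. A smaller limit was therefore used beside it, more than 25% higher or more than 20% lower, which is the same distance on the log2 scale. Past this limit, 10 genes were higher (11.9%, against 19.6% of all genes) and 0 lower (against 14% of all genes). Relative to the median of all genes, 5 were higher and 0 lower. Differences past the limit were thus a smaller share than among all genes, and all of them were upward.

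Rpl31, a protein near the exit of the peptide tunnel (rn6 chr9:46086959-46090444, + strand), was at 158 TPM in the sevoflurane control, 250 in sevoflurane 6 h, 145 in the desflurane control and 152 in desflurane 6 h. Sevoflurane 6 h stood alone, at 1.58 times its own control and 1.72 times the desflurane control. Rpl3 (chr7:121297361-121302739, - strand), next to the catalytic centre of the large subunit, was at 158, 234, 180 and 212 TPM in the same order. Both 6 h livers were above both controls here, with a log2 ratio of 0.57 for sevoflurane and 0.24 for desflurane against their own controls. Rpl4 (chr8:69121682-69126805, + strand), which lines the peptide tunnel, was at 324, 445, 345 and 364 TPM. Its log2 ratio was 0.46 with sevoflurane and 0.08 with desflurane.

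Rpl10a, the protein of the mobile L1 stalk, was at 116, 151, 121 and 133 TPM, a log2 ratio of 0.39 with sevoflurane. Of the small subunit, Rps26, which touches the mRNA as it leaves the ribosome, was at 359, 457, 388 and 343 TPM, and Rps28, its neighbour at that exit, at 57.0, 72.4, 67.1 and 77.5 TPM. Rps26 was highest in sevoflurane 6 h and lowest in desflurane 6 h, whereas Rps28 was high in both 6 h livers. Rpl13 of the large subunit, summed over 2 rows, was at 221, 306, 268 and 246 TPM. Rps14 of the small subunit, likewise over 2 rows, was at 88.8, 113, 96.3 and 92.5 TPM, a log2 ratio of 0.34. The stalk protein Rplp0 and Rpsa, a protein of the small subunit that is also known as the laminin receptor, were highest in sevoflurane 6 h and nearly equal in the other 3 libraries. Rplp0 was at 337, 418, 340 and 349 TPM and Rpsa at 362, 433, 348 and 363 TPM. Rplp2, summed over 2 rows, was at 129, 143, 123 and 141 TPM.

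The 5 lowest log2 ratios under sevoflurane lay between -0.18 and -0.14, beside the median of 0.16 over the 84 genes. They belonged to Rps9 (-0.18), Rpl12 at the base of the stalk (-0.17), the paralog Rpl36al (-0.16), Rpl36 (-0.16) and Rps15a (-0.14). The 2 rows of Rps9, whose positions are shared with Rps9l1, had ratios of 0.13 and -0.66. Rpl12 was at 115 TPM in the sevoflurane control, 103 in sevoflurane 6 h, 94.0 in the desflurane control and 103 in desflurane 6 h, so that its lower ratio rested on the level of the sevoflurane control, the highest of the 4. The same held for Rpl36, at 219, 196, 185 and 174 TPM. In all, the sevoflurane control was the highest of the 4 libraries for 8 genes (9.52%, against 18% of all genes).

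Against the desflurane control, sevoflurane 6 h gave much the same picture. The median log2 ratio was 0.19 beside 0.07 over all genes, with 74 genes above (88.1%, against 59.4% of all genes) and 10 below equal levels. Past the smaller limit, 7 genes were higher (21.5% of all genes) and 0 lower (13.7% of all genes), and none reached 2-fold (3.43% of all genes). Among them were Rpl31, Rpl3, Rps2, Rpl4 and Rpl10a. Both comparisons rest on the same sevoflurane 6 h library and are not independent of each other. Sevoflurane 6 h lay above both controls for 66 of the 84 genes (78.6%, against 47.4% of all genes) and below both for 5 (5.95%, against 31%). The 5 were Rpl22, Rpl27, Rps27l, Rps9 and Rps9l1.

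Desflurane 6 h against its own control left ribosomal protein genes slightly below the general shift. The median log2 ratio was 0.08, with quartiles of -0.03 and 0.17, beside 0.12 over all 9136 genes, with quartiles of -0.07 and 0.32. Of the 84 genes, 60 (71.4%, against 67.0% of all genes) were above and 24 below equal levels, a share near that of all genes. This median was negative, -0.04, when rRNA genes were taken out of the TPM scale, and that of all genes then stood at 0.01. Only the position relative to all genes, -0.05 on both scales, can therefore be read. It is smaller than 0.08, the median difference of the 84 genes between the controls taken without its sign. Genes above 100 TPM, taken from the whole table, had a median of 0.10 on the reported scale, nearer to that of the ribosomal protein genes. Past the smaller limit, 5 of the 84 genes were higher (5.95%, against 25.1% of all genes) and 3 lower (3.57%, against 8.83%). The balance of the 2 directions turned with the scale: 1 was higher and 5 lower with median-of-ratios scaling, 4 and 5 with FPKM, 3 and 5 without rRNA genes, and 2 and 5 relative to the median of all genes. None of the 84 genes reached 2-fold, against 3.08% of all genes. Without the 5 genes whose rows overlap or change between files, 3 of 79 were higher past the smaller limit and 2 lower.

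The genes that were higher with desflurane all belonged to the large subunit or its paralogs. Rpl22l1, a paralog of Rpl22, was at 27.3 TPM in the sevoflurane control, 30.7 in sevoflurane 6 h, 24.8 in the desflurane control and 34.3 in desflurane 6 h. Rpl37a was at 184, 208, 169 and 230 TPM, and Rpl37a-ps1, whose row covers nearly the same bases of chromosome 9, at 188, 213, 173 and 235 TPM. Both rows can hold the same reads, so they are read here as 1 observation. Rpl39, which lies in the peptide tunnel, was at 131, 137, 114 and 152 TPM, and Rpl27a at 96.1, 101, 87.2 and 114 TPM. In each of these the desflurane control was the lowest library and desflurane 6 h the highest.

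Rpl17 (chr18:70969733-70972838, + strand), a protein at the mouth of the tunnel, was at 194, 224, 207 and 159 TPM. Desflurane 6 h was the lowest library, with a log2 ratio of -0.38 against its own control, while sevoflurane 6 h was the highest. The paralog Rps4y2 had the same order, at 8.71, 10.6, 9.66 and 6.78 TPM. Rps9l1, at 99.4, 96.3, 97.3 and 53.4 TPM, Rps9, at 97.2, 86.1, 92.4 and 74.0 TPM, and Rps6, the substrate of the S6 kinase, at 346, 402, 340 and 281 TPM, were also low in desflurane 6 h. Those 3 values cannot be compared with the others. Rps6 was listed as 2 rows on chromosome 5 in 3 libraries but as 1 row over 14886 bases in desflurane 6 h, and Rps9 and Rps9l1, which share their positions on chromosome 1, as 2 rows and as 1 row over 71699 bases.

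Against the sevoflurane control, desflurane 6 h had a median of 0.06 beside 0.10 over all genes, with 57 genes above (67.9%, against 64.2% of all genes) and 27 below equal levels. Past the smaller limit, 6 were higher (23.4% of all genes) and 6 lower (9.46% of all genes), and none reached 2-fold (2.7% of all genes). Desflurane 6 h lay above both controls for 50 genes (59.5%, against 54.4% of all genes) and below both for 17 (20.2%, against 23.1%). These shares were close to those of all genes, unlike the shares for sevoflurane 6 h. Against the sevoflurane control, the median of genes above 100 TPM, taken from the whole table, was also 0.06, level with the ribosomal protein genes.

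**Figure D3:**
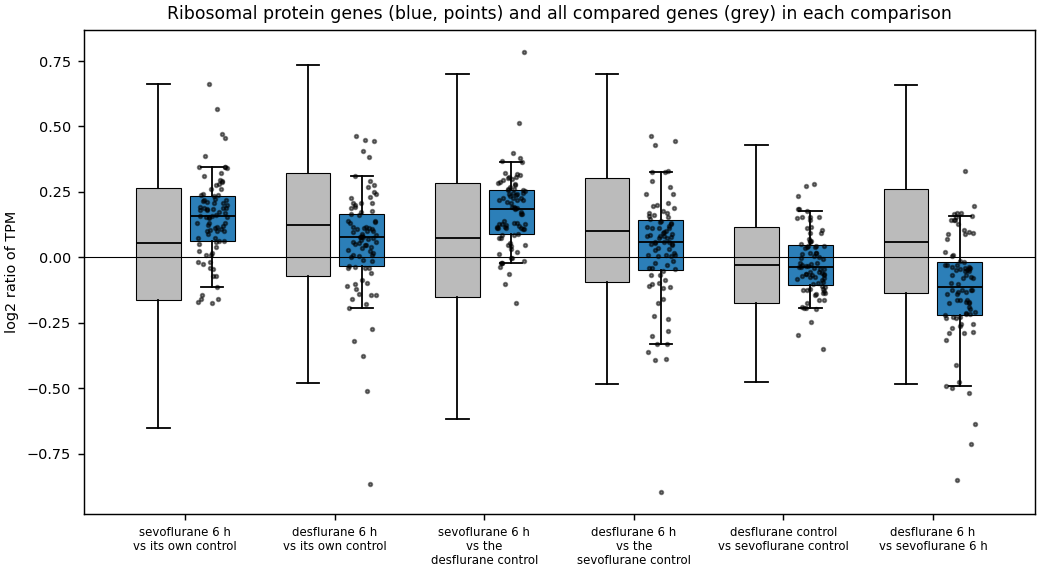
log2 ratio of TPM (y axis) in the 6 pairs of libraries (x axis), for all 9136 compared genes (grey boxes) and the 84 ribosomal protein genes (blue boxes with each gene as a point). Boxes span the quartiles with the median as a line, and whiskers run from percentile 5 to percentile 95. The blue boxes are narrower than the grey in every pair and their medians are the higher in both pairs with sevoflurane 6 h over a control and the lower in desflurane 6 h over sevoflurane 6 h.

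The 2 controls show how far 2 livers differed with almost no anesthesia. The median log2 ratio of the desflurane control over the sevoflurane control was -0.04, beside -0.03 over all genes, with 33 genes above (39.3%, against 44.7% of all genes) and 51 below equal levels. Past the smaller limit, 0 genes were higher (8.53% of all genes) and 1 was lower (10.2% of all genes), the paralog Rpl36al, which stood at 88.8 TPM against 113 in the sevoflurane control. None reached 2-fold (1.11% of all genes). The desflurane control was the highest library for 3 genes (3.57%, against 14.6% of all genes), namely Rpl35, Rpl38 and Rpl41.

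Set directly against sevoflurane 6 h, desflurane 6 h was lower for 64 genes and higher for 20 (23.8%, against 57.8% of all genes). The median log2 ratio was -0.11 beside 0.06 over all genes, a gap of 0.17 and the widest of the 6 pairs. Past the smaller limit, 1 gene was higher (19.6% of all genes) and 8 were lower (10.9% of all genes), and none reached 2-fold (2.16% of all genes). The single higher gene was Rps19bp1, at 9.22, 10.1, 10.3 and 12.7 TPM in the order of libraries used above. Among the lower ones were Rpl17, Rpl31, Rps2, Rps26, Rps4y2 and the uncertain Rps6 and Rps9l1. Sevoflurane 6 h was the highest of the 4 libraries for 54 genes (64.3%, against 29.1% of all genes) and desflurane 6 h for 19 (22.6%, against 38.3%).

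**Figure D4:**
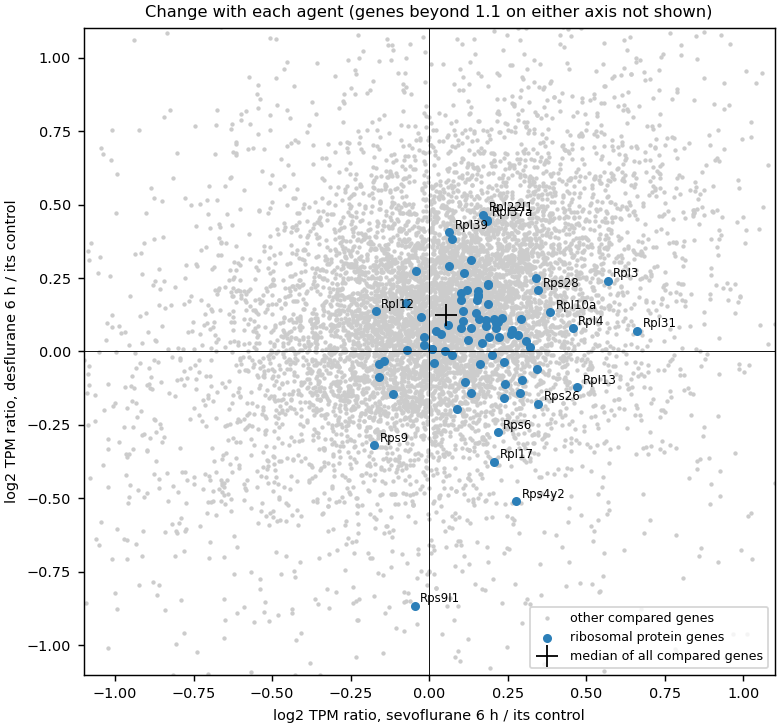
log2 TPM ratio of desflurane 6 h over its control (y axis) against that of sevoflurane 6 h over its control (x axis), for the 84 ribosomal protein genes (blue) and the other compared genes (grey), with genes beyond 1.1 on either axis outside the plot. The cross marks the median of all genes, 0.05 and 0.12; most blue points lie to the right of it, and most below it, with Rpl31 farthest to the right at 0.66 and Rps9l1, whose rows changed between files, lowest at -0.87.

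Several genes are listed at more than 1 place in the rn6 annotation. Their rows are given apart here, but cannot show whether the gene or a copy carried a ratio. Rats hold many processed copies of ribosomal protein genes, made from spliced mRNA, and reads that match both can be assigned to either. In all, 17 genes had several rows. The chromosome 19 row of Rpl13 was at 157, 238, 205 and 186 TPM, a log2 ratio of 0.60 with sevoflurane, while its shorter row on chromosome 8 was at 63.4, 68.2, 63.2 and 60.3 TPM, a ratio of 0.11. The chromosome 20 row of Rpl10a had a ratio of 0.45 with sevoflurane and its chromosome 4 row -0.24, with 89.1% of the level of the sevoflurane control in the former. The X chromosome row of Rpl39 had a ratio of 0.46 with desflurane and its 2 short rows 0.17 and 0.11. In these genes the listed ratio of the longer row was wider than that of the sum.

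Other copies moved against each other. The chromosome 1 row of Rps19 was at 117, 100.5, 110 and 143 TPM and its chromosome 9 row, of nearly the same length, at 42.0, 61.3, 53.8 and 29.4 TPM. The sum, 159, 162, 164 and 172 TPM, was steady while the share of each row was not. Rpl9 showed the same with desflurane, at a log2 ratio of 0.30 for its chromosome 14 row and -0.35 and -0.38 for its short rows on chromosomes 1 and 3. Rpl38 also had a steady sum, with its chromosome 10 row at 37.0, 39.1, 28.5 and 32.1 TPM. Its short row on chromosome 2 was at 2.48, 1.62, 6.92 and 4.64 TPM and that on chromosome 3 at 2.47, 1.77, 7.12 and 4.59 TPM. For Rpl7a, which the annotation places at 2 sites on chromosome 3, short rows on chromosomes 1 and 18 held 40.6% and 48.5% of the level in the sevoflurane control. Rpl8 and Rplp2 each had a pair of rows of the same length on 1 chromosome with nearly equal levels, and Rpl35al1 had 5 rows of between 1.98 and 23.3 TPM. The split between such rows is uncertain, and the sums are the safer values.

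The paralogs were mixed in direction. Of the 8 genes in the paralog and other-name classes above 2 TPM, 4 were above and 4 below equal levels with each agent, with medians of 0.04 for sevoflurane and 0.06 for desflurane. Rpl36al was at 113, 101, 88.8 and 86.3 TPM and Rpl35al1 at 72.5, 67.0, 63.6 and 57.5 TPM, both highest in the sevoflurane control and lowest in desflurane 6 h. Rps27l, a paralog of Rps27 that is known as a p53 target, was even, at 45.4, 43.2, 43.3 and 48.5 TPM. With 8 genes, of which 2 share rows with subunit genes, little can be read from these medians.

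Genes that serve the ribosome were looked at from lists, beside the ribosomal proteins themselves. Of 82 genes of ribosome biogenesis, which process rRNA and put the subunits together, 44 were more than 25% higher with sevoflurane and 0 more than 20% lower, at a median log2 ratio of 0.35, and 38 were higher and 1 lower by the same limit with desflurane, at 0.28. Of all genes, 19.6% were higher and 14% lower by this limit with sevoflurane, and 25.1% and 8.83% with desflurane, against which the counts of the lists that follow are also to be read. The median stood above that of ribosomal protein genes with each agent. Gar1, a protein of the particles that make pseudouridine in rRNA, was at 2.28, 4.11, 2.33 and 4.90 TPM. Rpf2, which brings 5S rRNA into the large subunit, was at 4.18, 7.90, 4.96 and 6.35 TPM. Npm1, the abundant chaperone of the nucleolus, was at 65.0, 65.3, 65.2 and 75.4 TPM, and Rcl1, the most abundant gene of the list, at 118, 121, 97.2 and 104 TPM. Rcl1 and Npm1, the most abundant of the list, had log2 ratios of 0.03 and 0.01 with sevoflurane. With desflurane theirs were 0.10 and 0.21, and each lay under the median of the list. Ratio and abundance were not compared over the other genes of the list, and Gar1 was close to the limit of 2 TPM in both controls. Rsl1d1 was the lowest of the list with each agent, at 9.91, 8.31, 8.27 and 5.91 TPM.

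The other mRNAs with a TOP motif and the elongation factors, 21 genes, had medians of 0.17 with sevoflurane and 0.13 with desflurane, with 2 and 3 genes higher past the smaller limit and 0 lower, which are smaller shares than among all genes. Eef1a1, which carries aminoacyl-tRNA to the ribosome, was at 1475, 1587, 1450 and 1547 TPM. Tpt1 was at 1346, 1363, 1268 and 1268 TPM. Both were as steady as the ribosomal proteins. Gas5, a host gene of small nucleolar RNAs that also begins with a TOP motif, was at 11.8, 20.2, 12.6 and 21.0 TPM. Gas5 was high in both 6 h livers, with log2 ratios of 0.77 and 0.73. Of the ribosomal proteins that the name rule misses, Rack1 was at 134, 156, 137 and 155 TPM. Fau was uneven, at 105, 88.0, 76.4 and 119 TPM, with the controls themselves 0.46 apart on the log2 scale.

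The 24 initiation factors had medians of 0.26 with sevoflurane, with 6 higher past the smaller limit and 0 lower, and 0.13 with desflurane, with 2 higher and 0 lower. The 6 are a share near that of all genes, and the 2 a smaller one. Eif3j, a loosely held subunit of eIF3, was at 23.5, 36.2, 25.6 and 31.3 TPM, and Eif4g2, a relative of the scaffold eIF4G, was lower in both 6 h livers, at 183, 148, 180 and 146 TPM. Of 21 listed cytosolic aminoacyl-tRNA synthetases, which charge tRNAs, only 9 were found under the listed names. Those 9 had medians of 0.50 and 0.12, with Eprs at 87.4, 154, 108 and 120 TPM. The 14 genes of RNA polymerase I and rRNA transcription had medians of 0.05 and 0.31, with quartiles of -0.12 and 0.40 for sevoflurane and -0.07 and 0.55 for desflurane, too wide for a direction. Mitochondrial ribosomal protein genes, 71 in number, had medians of 0.16 and 0.08, much like the cytosolic ones, with wider quartiles. The 76 nuclear genes of the respiratory chain had medians of 0.09 and 0.13, and the 44 proteasome subunits 0.14 and -0.02.

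**Figure D5:**
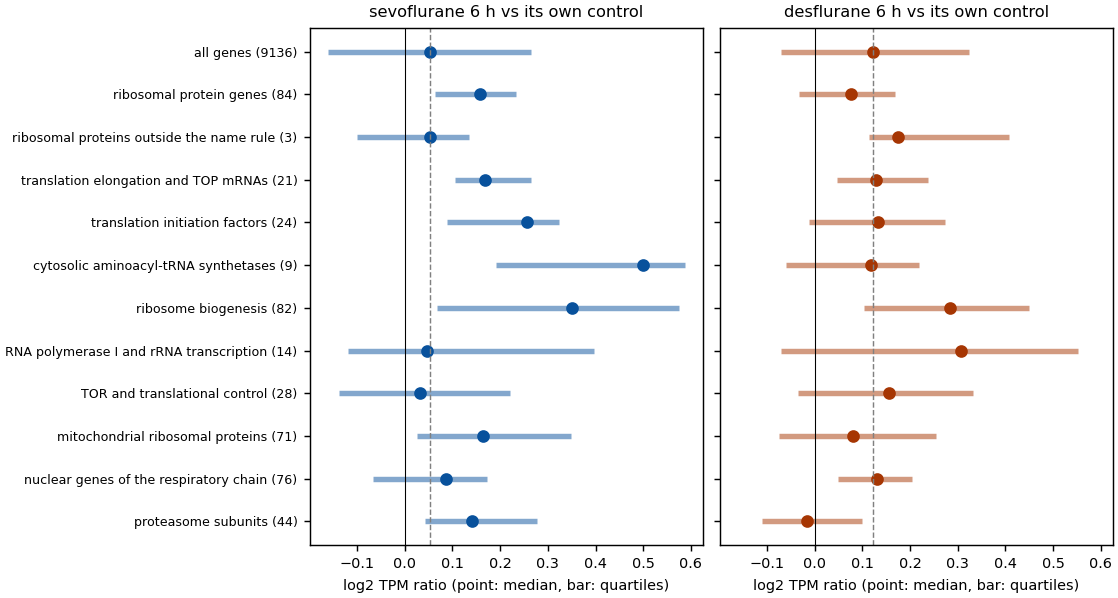
Median (point) and quartiles (bar) of the log2 TPM ratio (x axis) over the genes of each list (y axis, number of genes in parentheses) for sevoflurane 6 h over its control (left) and desflurane 6 h over its control (right). The dashed line is the median of all 9136 genes; ribosomal protein genes lie to the right of it on the left side, at 0.16, and to the left of it on the right side, at 0.08, and ribosome biogenesis genes lie to the right of it on both.

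Among the 28 genes of the TOR pathway and translational control, the medians were 0.03 with sevoflurane and 0.16 with desflurane, and single genes differed more than any ribosomal protein gene. Eif4ebp3, an inhibitor of cap-dependent initiation, was at 15.7, 24.5, 9.69 and 63.0 TPM, highest in desflurane 6 h. Ddit4, an inhibitor of TOR that is induced by stress, was at 3.34, 10.2, 5.94 and 2.95 TPM, highest in sevoflurane 6 h. Atf4, the transcription factor of the amino acid response, was at 99.95, 172, 136 and 109 TPM, again highest in sevoflurane 6 h. Levels of these mRNAs do not show the activity of TOR, which was not measured.

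Levels of cell type markers differed among the liver samples as well. The 7 hepatocyte markers, led by albumin, summed to between 144660 and 160414 TPM, so that all 4 samples were liver. The 10 markers of Kupffer cells and macrophages summed to 719 TPM in the sevoflurane control, 452 in sevoflurane 6 h, 561 in the desflurane control and 684 in desflurane 6 h. The 10 T and NK cell markers, none above 2 TPM in all libraries, summed to 11.3, 3.79, 7.21 and 8.22 TPM, and 10 pancreatic acinar markers to 61.7, 18.9, 16.5 and 18.5 TPM. The 4 erythroid markers in the tables summed to 84.5, 57.7, 61.4 and 34.2 TPM. The 6 endothelial markers summed to between 178 and 212 TPM, and the 8 stellate cell markers to between 301 and 339 TPM. Sevoflurane 6 h, the library with the highest ribosomal protein level, thus had the lowest sums of Kupffer and T cell markers, the sevoflurane control the highest acinar and erythroid sums, and desflurane 6 h the lowest erythroid sum. Their part in the ribosomal protein ratios was not tested. In whole liver, fewer cells of a type and less RNA per cell cannot be told apart.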

How the data were processed

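One RNA sequencing library was made per condition from rat liver, after depletion of rRNA. Per the study's methods, reads were trimmed with sickle, aligned to rn6 with HISAT2, sorted with SAMtools and quantified with StringTie on the refGene annotation. In each table deposited by the authors, a row is an annotated gene or an assembled one, with TPM, FPKM and coverage. The assembled rows alone sum to 1000000 TPM and the annotated rows come on top on the same scale, so TPM values deposited by the authors were treated as a signal. FPKM and coverage signal deposited by the authors served as alternatives. The inverse of the ratio of FPKM to coverage, which scales with the aligned bases, gave 4.47 to 5.40 Gb per library.

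Annotated rows longer than 200 bases were kept and TPM was summed per gene with Python 3.11.15 and pandas 2.3.3. Genes above 2 TPM in all 4 libraries were compared as log2 ratios without a pseudocount, at limits of 2-fold and of more than 25% higher or 20% lower. No test was possible. The calculation was tested on simulated data with far less noise than lay between these livers. That checks the arithmetic and not how reliable the differences are. No correction was made for rRNA in the reported values. The genes and lists were chosen with earlier results of these data known. Named genes were those with the 5 highest and 5 lowest ratios against the own control, the 10 most abundant, the stalk genes and Rpsa, paralogs, genes with several rows and, of other lists, abundant and extreme members. Genes named for other comparisons were chosen after their values were seen. A few genes are counted but not reported here by name.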

Additional observations from a re-analysis of the deposited data

Results flagged for a closer look

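For 5 ribosomal protein genes the ratio against the own control was more than 25% up or 20% down with one agent and pointed the other way with the other, which is 5.95% of the 84 genes, against 17.8% of all genes. The log2 ratio with desflurane minus that with sevoflurane was -0.79 for Rps4y2, -0.59 for Rpl13, -0.58 for Rpl17, -0.52 for Rps26 and -0.40 for Rps14. Rps4y2 was at 0.28 with sevoflurane and -0.51 with desflurane, from levels under 11 TPM. Rpl17 was at 0.21 and -0.38, Rpl13 at 0.47 and -0.12, Rps26 at 0.35 and -0.18 and Rps14 at 0.34 and -0.06. In all 5 the sevoflurane ratio was the higher, as it was for the median of the 84 genes. With 1 liver per condition these differences were not tested.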

How the results depend on the processing

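With 1 liver per condition, differences between rats, agents and libraries cannot be told apart, and neither read counts nor replicate error were at hand. A shift was taken as small when it was under 0.08, the median over the 84 genes of the log2 difference between the controls taken without its sign. No paired analysis was possible because each group holds 1 library and the replicate numbers pair nothing. The median for sevoflurane 6 h against its own control stayed between 0.11 and 0.18 under 13 alternatives, and 0.10 to 0.12 above that of all genes. The median for desflurane 6 h against its own control changed sign with median-of-ratios scaling (-0.050), FPKM (-0.00099) and removal of rRNA genes from the scale (-0.036), but lay 0.03 to 0.05 under that of all genes in every one of 13. Against the sevoflurane control it changed sign with median-of-ratios scaling (-0.046) and FPKM (-0.20), and the ratio of the controls did so without rRNA genes (0.033). FPKM gave 0.31 for sevoflurane 6 h against the desflurane control, -0.21 for the controls and -0.32 for desflurane 6 h against sevoflurane 6 h, and moved the median of all genes by as much.

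Of the 10 genes past the smaller limit with sevoflurane, the count was 5 with median-of-ratios scaling, 5 with FPKM, 5 relative to the median of all genes and 1 at 1.5-fold. Of the 8 with desflurane, it was 4 over subunit genes alone, 1 at 1.5-fold and 5 without the 5 genes whose rows overlap or change between files, an alternative added after seeing the data.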
